A study of Mus musculus with 16 samples.

Results

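The transcripts of 9 genes that carry the adrenergic signal in the heart were followed through pressure overload and deletion of the lncRNA Cardinal. They were the receptors Adrb1, Adra1a and Adra1b, the receptor kinase Grk5, the adenylyl cyclases Adcy5 and Adcy6, and the cAMP phosphodiesterases Pde3a, Pde4b and Pde4d. The 9 were picked by symbol from the 55487 genes of the count table, and each matched 1 Ensembl identifier. All 9 passed the filter on low counts and were tested among 18275 genes.

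RNA came from the apex of the heart of 16 male mice, taken 4 weeks after surgery. Ctrl mice carried the genotype WT and KO mice the genotype CARDINAL-KO, a deletion of Cardinal made with CRISPR/Cas9. Transverse aortic constriction (TAC) narrowed the aorta and loaded the left ventricle, and the sham operation lacked the ligature. Sham and TAC groups of each genotype held 4 mice each, so the p-values measure the spread between animals, and the ages of the mice were not given in the sources used here. Sham mice of both genotypes had the chest opened as well. The sources used here name no Cre driver that would limit the deletion to one cell type.

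Noradrenaline and adrenaline act on the cardiomyocyte through beta and alpha-1 receptors. The beta-1 receptor, the product of Adrb1, couples through a stimulatory G protein to adenylyl cyclase, which makes cAMP and so activates protein kinase A, while phosphodiesterases break cAMP down in small compartments of the cell. Alpha-1 receptors couple through another G protein to phospholipase C and are known for driving hypertrophic growth, and G protein-coupled receptor kinases phosphorylate receptors that have bound their ligand and so damp the signal.

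The deposited table held 53169437 to 79404714 counts per library, and mitochondrial genes took 21.9% to 28.8% of them. The members were counted 509 to 18621 times per library. Cardinal itself (Gm12295, minus strand of chromosome 11) stood at 3.24 to 3.86 CPM (counts scaled to the size of the library, here after TMM scaling) in Ctrl sham and at 0.297 to 0.553 CPM in KO sham. It stood at 2.69 to 8.02 CPM in Ctrl TAC. In KO TAC it was at 0.276 to 0.371 CPM in 3 libraries and at 4.55 CPM in the library labelled KO TAC 4, which goes against that label. Results on the members that passed in a comparison with KO TAC, and the pathway calls between the genotypes in TAC, are given with and without it. The animal numbers in the titles began with 25 for Ctrl TAC 2, 3 and 4 and KO TAC 4, and with 33 for Ctrl sham 4 and KO sham 1, 2 and 3. What these numbers mean is not given in the labels. Fits with a term for either series (the 25 term and the 33 term) are given where they change the call of a member. No sham library is in the 25 series, which sets Ctrl TAC 1 and KO TAC 4 apart from the rest of their groups. Values with the 25 term therefore lean on these single libraries. Summed markers of cardiomyocytes lay at 52164 to 60491 CPM in Ctrl sham, 53117 to 58784 CPM in KO sham, 47905 to 52723 CPM in Ctrl TAC and 41104 to 44393 CPM in KO TAC. Summed fibroblast markers lay at 579 to 706, 610 to 645, 1123 to 1594 and 1828 to 1995 CPM in the same order. Of the 8 markers in each list, 4 cardiomyocyte markers fell and 5 fibroblast markers rose with TAC in Ctrl, and 5 fell and 8 rose in KO, with 1 cardiomyocyte marker rising in each. Of all genes tested, 9.60% fell and 10.4% rose in Ctrl, and 16.5% fell and 17.8% rose in KO. Atrial markers reached at most 3.27 CPM in sum. In tissue RNA of this kind, fewer cells of a type and less RNA per cell cannot be told apart, and the part of cell composition in the results below was not tested.

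The stretches of 250 bases before the transcription start are shown for 3 members, because these genes took different courses. Adrb1 passed the test in no comparison, and Grk5 rose with TAC. Pde4b was the phosphodiesterase called between the genotypes in TAC, a call that did not hold in every alternative. The sequences are RefSeq's, of assembly GRCm38.p6, all on the plus strand and read 5′ to 3′. Capitals mark the half-site of the cAMP response element, TGACG or, on the other strand, CGTCA.
Adrb1, chr19:56721867-56722116: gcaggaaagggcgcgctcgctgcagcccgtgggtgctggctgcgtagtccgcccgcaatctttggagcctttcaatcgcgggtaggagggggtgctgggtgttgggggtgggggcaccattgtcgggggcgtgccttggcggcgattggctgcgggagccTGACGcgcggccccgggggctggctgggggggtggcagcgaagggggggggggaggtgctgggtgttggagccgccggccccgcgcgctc
Grk5, chr19:60889499-60889748: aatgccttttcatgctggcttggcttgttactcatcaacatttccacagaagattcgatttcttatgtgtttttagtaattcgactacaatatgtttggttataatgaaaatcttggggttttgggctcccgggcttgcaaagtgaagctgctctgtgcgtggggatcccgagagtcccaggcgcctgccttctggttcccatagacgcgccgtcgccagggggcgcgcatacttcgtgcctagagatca
Pde4b, chr4:102421305-102421554: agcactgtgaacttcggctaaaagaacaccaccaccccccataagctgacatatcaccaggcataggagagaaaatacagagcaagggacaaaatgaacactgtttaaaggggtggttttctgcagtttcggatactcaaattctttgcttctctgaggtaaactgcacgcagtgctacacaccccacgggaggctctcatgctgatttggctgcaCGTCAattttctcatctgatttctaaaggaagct
The half-site began 90 bases before the start in Adrb1, and 34 bases before it in this 1 of the 4 Pde4b promoters listed. In Grk5 these letters were not in the window. Across the table, 17.8% of 32851 promoters held the half-site on either strand and 1.55% held the full palindrome TGACGTCA, which contains the half-site on both strands. Among the 10 promoters listed for 6 members, the half-site was in these 2 and the palindrome in none, a share of half-sites near that of all promoters. Adra1a, Adcy6 and Pde3a had no entry. A match of letters is a description of the sequence, and binding was not measured.

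Per kilobase of exon, Adcy6 was the most abundant member in every group, at 38.7 ± 0.551 CPM per kb in Ctrl sham (SD, n = 4). Adcy5 followed at 9.29 ± 0.258, Adra1b at 6.99 ± 1.25, Pde3a at 6.09 ± 0.638, Grk5 at 5.10 ± 0.398, Adrb1 at 5.01 ± 1.05, Adra1a at 2.77 ± 0.284, Pde4b at 2.295 ± 0.239 and Pde4d at 1.19 ± 0.0428 CPM per kb. Adra1b and Pde3a overlapped between libraries in this order, as did Grk5 and Adrb1, and Adra1a and Pde4b. After TAC the order differed in the middle. Grk5 stood in the third place in both genotypes, at 6.33 ± 0.577 CPM per kb in Ctrl TAC and 7.71 ± 0.857 in KO TAC, where it overlapped Adcy5 at 8.77 ± 1.13. In Ctrl TAC, Grk5 overlapped the next gene, Pde3a, at 5.29 ± 0.468 CPM per kb. Adcy6 was at 25.1 ± 0.407 CPM per kb in KO TAC. Pde4b, at 2.41 ± 0.309, stood above Adra1a, at 1.46 ± 0.131 CPM per kb, in KO TAC, with no overlap. Lengths are the union of all annotated exons, which may be more than the heart uses for genes with many transcripts such as Pde4b (13 transcripts annotated) and Pde4d (20).

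**Figure D1:**
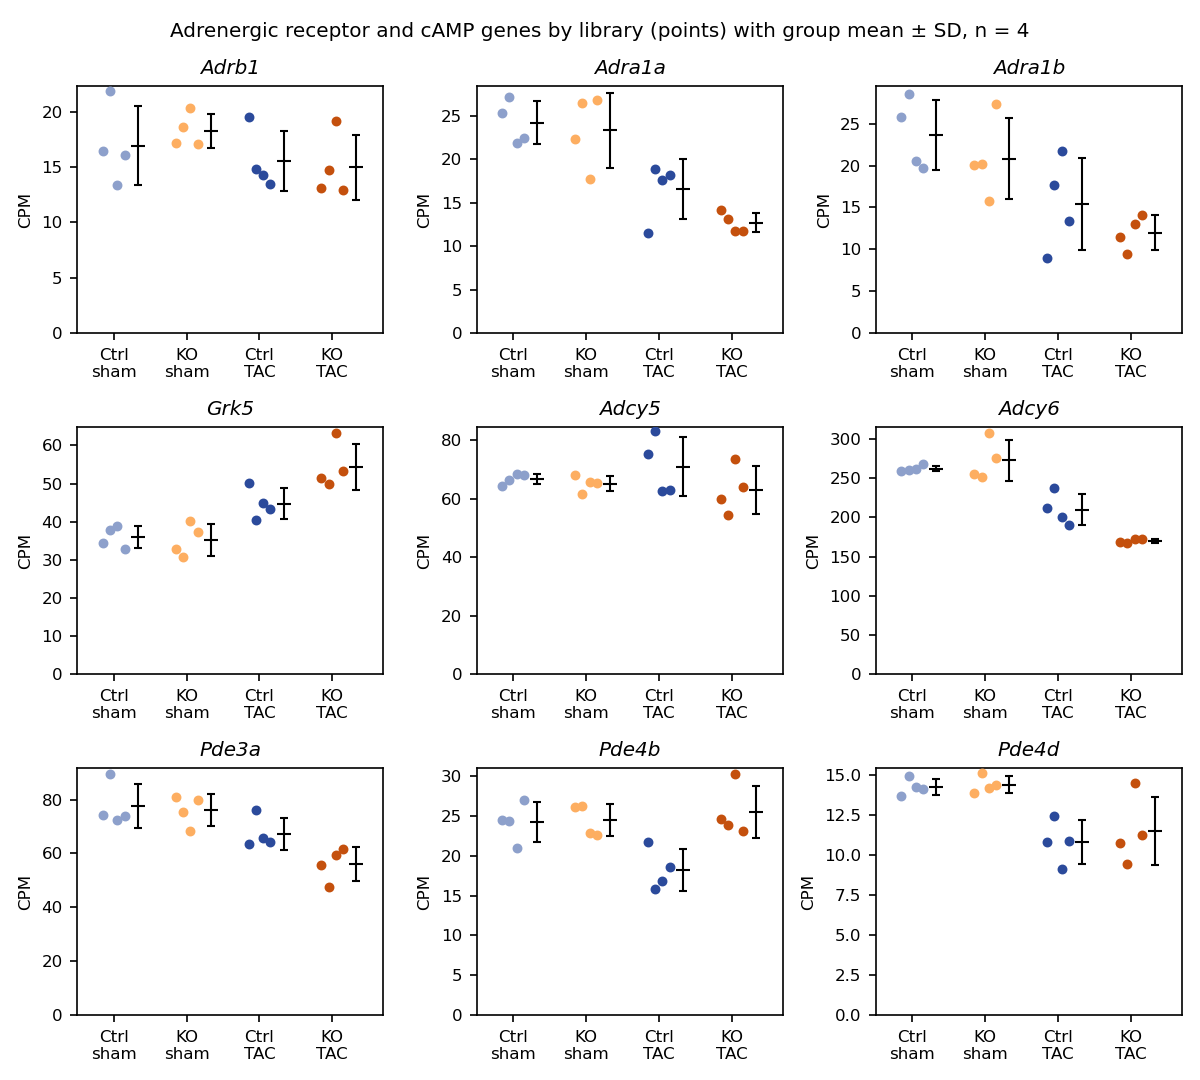
Level of each member in CPM (vertical axes, from 0) in the 16 libraries (points), with the group mean and SD beside them (black, n = 4). The group means of Adcy6, Adra1a and Pde3a are lowest in KO TAC, that of Grk5 is highest there, and that of Pde4b is lowest in Ctrl TAC.

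The first comparison asked how TAC altered these transcripts in mice with Cardinal. In Ctrl hearts, Grk5 rose, and Adra1a, Adcy6, Pde4b and Pde4d fell, which made 5 of 9 members against 20.0% of all genes tested (10.4% higher and 9.60% lower, edgeR quasi-likelihood test, Benjamini-Hochberg adjusted p under 0.05). In KO hearts, Grk5 rose, and Adra1a, Adra1b, Adcy6, Pde3a and Pde4d fell, 6 of 9 members against 34.3% of all genes (17.8% higher and 16.5% lower). Grk5, Adra1a, Adcy6 and Pde4d passed in both genotypes, in the same direction, so that these 4 were 80.0% of the members called in Ctrl and 66.7% of those called in KO. Over all genes the shares were 83.0% of 3652 and 48.3% of 6271. Adrb1 and Adcy5 passed in neither. The members' median log2 fold change was -0.32 in Ctrl and -0.32 in KO, beside 0.00426 and -0.00390 over all genes. TAC and sham libraries did not overlap for 4 members in Ctrl (20.5% of all genes) and for 5 in KO (34.6%).

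**Figure D2:**
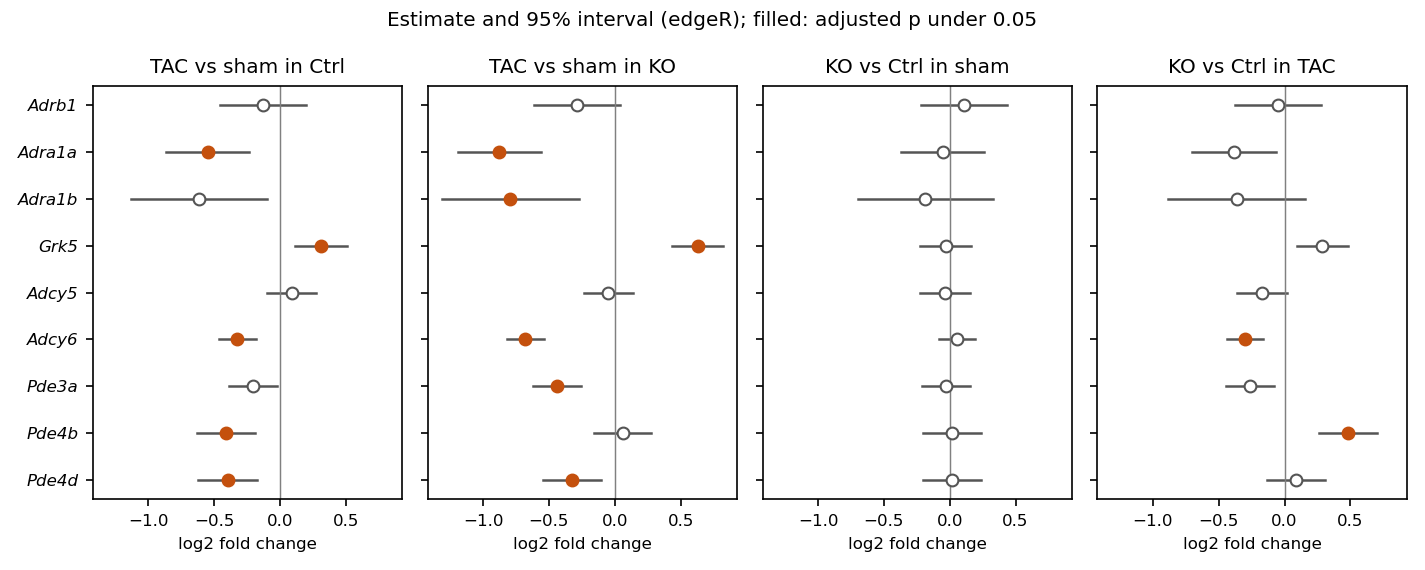
Log2 fold change of each member (horizontal axes) with its 95% interval in 4 comparisons, with filled points at adjusted p under 0.05. The effects of TAC are filled for 5 members in Ctrl and 6 in KO, none is filled between the genotypes in sham, and Adcy6 and Pde4b are filled between the genotypes in TAC.

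Among the receptors, the beta-1 receptor gene passed the test in neither genotype. Adrb1 (ENSMUSG00000035283, 19:56722199-56733113, plus strand, build GRCm38) ranged from 13.4 to 21.9 CPM in Ctrl sham, 17.1 to 20.3 in KO sham, 13.5 to 19.6 in Ctrl TAC and 12.9 to 19.2 in KO TAC. All 4 groups overlapped. Its log2 fold change with TAC was -0.13 in Ctrl (95% interval -0.45 to 0.20, adjusted p = 0.631, edgeR) and -0.29 in KO (-0.62 to 0.04, adjusted p = 0.168). These intervals still hold falls of moderate size. Without KO TAC 3, which had the highest Adrb1 of its group, the KO value was -0.43 (adjusted p = 0.0365), and without KO TAC 4 it was -0.22 (adjusted p = 0.347).

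Adra1a, the alpha-1A receptor, was lower after TAC in both genotypes. Adra1a (ENSMUSG00000045875, 14:66635251-66771168, plus strand) measured 25.3, 27.2, 21.9 and 22.4 CPM in Ctrl sham and 22.3, 26.5, 17.7 and 26.9 in KO sham. It was at 11.5, 18.9, 17.7 and 18.2 CPM in Ctrl TAC and at 14.1, 13.2, 11.8 and 11.8 in KO TAC. Every TAC library lay below every sham library of its genotype, and Ctrl TAC 1 was the lowest of all 16. The log2 fold change was -0.55 (SE 0.15, adjusted p = 0.0159) in Ctrl and -0.88 (SE 0.15, adjusted p = 0.000287) in KO. Without Ctrl sham 2 the Ctrl value missed the threshold (adjusted p = 0.0502), and without KO TAC 4 the KO value was -0.84 (adjusted p = 0.00151).

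Adra1b, the alpha-1B receptor, had the widest interval of the 9 members in both genotypes. Adra1b (ENSMUSG00000050541, 11:43774606-43901210, minus strand) measured 25.8, 28.5, 20.6 and 19.7 CPM in Ctrl sham and 20.1, 20.1, 15.7 and 27.4 in KO sham. After TAC it was at 8.96, 17.6, 21.7 and 13.4 CPM in Ctrl and at 11.4, 9.39, 13.1 and 14.1 in KO. The Ctrl groups overlapped through Ctrl TAC 3, and the KO groups did not overlap. With TAC the log2 fold change was -0.62 in Ctrl (SE 0.24, adjusted p = 0.0907) and -0.79 in KO (SE 0.24, adjusted p = 0.0208). The Ctrl value passed without Ctrl TAC 3 (-0.83, adjusted p = 0.0258), with the 25 term (-1.14, adjusted p = 0.0175) and with the 33 term (-0.72, adjusted p = 0.0413). Ctrl TAC 1, on which the 25 term leans, had the lowest Adra1b of all 16 libraries, at 8.96 CPM. In KO, leaving out KO sham 4, KO TAC 1 or KO TAC 2 put the value above the threshold (adjusted p = 0.0706, 0.0501 and 0.0625), and leaving out KO TAC 4 did not (adjusted p = 0.0245).

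Grk5, the kinase that phosphorylates activated receptors at the cell membrane, was the member that rose. Grk5 (ENSMUSG00000003228, 19:60889749-61095968, plus strand) measured 34.4, 37.8, 38.8 and 32.9 CPM in Ctrl sham and 32.8, 30.6, 40.2 and 37.3 in KO sham. It was at 50.1, 40.4, 44.9 and 43.3 CPM in Ctrl TAC and 51.4, 49.8, 63.2 and 53.3 in KO TAC. All TAC libraries lay above all sham libraries, and KO TAC 3 was the highest. The log2 fold change was 0.31 (SE 0.09, adjusted p = 0.0230) in Ctrl and 0.63 (SE 0.09, adjusted p = 4.39e-05) in KO. The Ctrl value missed the threshold without Ctrl sham 1, Ctrl sham 4 or Ctrl TAC 1 (adjusted p = 0.0690, 0.0689 and 0.0787), and the KO value was 0.64 without KO TAC 4 (adjusted p = 0.000166).

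The cyclases, both of which calcium inhibits, took separate courses. Adcy6 (ENSMUSG00000022994, 15:98589973-98610076, minus strand) measured 259, 261, 262 and 268 CPM in Ctrl sham and 256, 251, 308 and 276 in KO sham. It was at 211, 237, 200.04 and 190.4 CPM in Ctrl TAC and at 169, 167, 173 and 172 in KO TAC. The sham genotypes overlapped, Ctrl TAC lay below both, and KO TAC lay below Ctrl TAC with no overlap. The log2 fold change with TAC was -0.32 (SE 0.07, adjusted p = 0.00188) in Ctrl and -0.68 (SE 0.07, adjusted p = 3.95e-07) in KO, and -0.69 in KO without KO TAC 4 (adjusted p = 3.36e-06). It was called in both genotypes whichever library was left out. Adcy5 (ENSMUSG00000022840, 16:35154877-35305738, plus strand) ranged from 64.4 to 68.3 CPM in Ctrl sham, 61.7 to 68.1 in KO sham, 62.5 to 83.1 in Ctrl TAC and 54.4 to 73.7 in KO TAC. Its log2 fold change was 0.09 in Ctrl (95% interval -0.10 to 0.28, adjusted p = 0.544) and -0.05 in KO (-0.24 to 0.14, adjusted p = 0.719), where it was -0.06 without KO TAC 4 (adjusted p = 0.723).

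Adcy5 made up a larger share of the pair after TAC. Per kilobase, it was 19.4% ± 0.321 of Adcy5 and Adcy6 together in Ctrl sham (SD, n = 4) and 18.5% ± 1.40 in KO sham. It was 24.2% ± 1.08 in Ctrl TAC and 25.8% ± 2.17 in KO TAC. The TAC libraries, from 22.8% to 28.7%, lay above the sham libraries, from 16.7% to 20.1%, and the genotypes overlapped within each operation. Adra1a held 28.6% ± 1.65 of the alpha-1 pair in Ctrl sham and 29.5% ± 5.12 in KO TAC, and all 4 groups overlapped. The shares were chosen after the values had been seen and are given without a test.

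**Figure D3:**
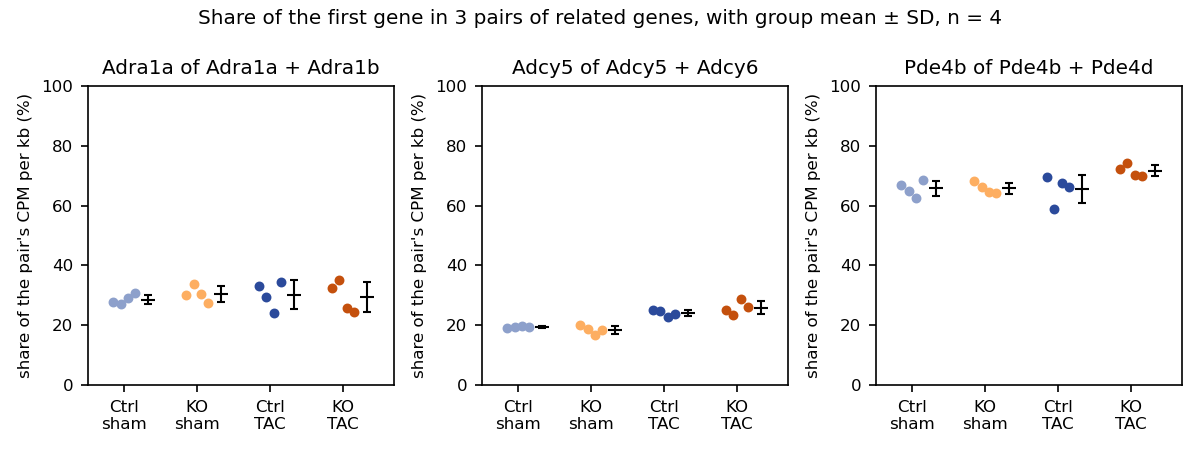
Share of the first gene in the summed CPM per kb of a pair (vertical axes, 0 to 100%) in each library (points), with group mean and SD (n = 4). The Adcy5 share is higher in TAC than in sham in both genotypes, and the Pde4b share is highest in KO TAC, at 69.9% to 74.1%.

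Of the phosphodiesterases, Pde3a is the cAMP enzyme that cGMP inhibits, and Pde4b and Pde4d belong to the cAMP-specific family. Pde3a (ENSMUSG00000041741, 6:141249269-141507448, plus strand) measured 74.2, 89.7, 72.5 and 73.7 CPM in Ctrl sham and 81.1, 75.3, 68.2 and 79.9 in KO sham. It was at 63.6, 76.2, 65.6 and 64.1 CPM in Ctrl TAC and 55.6, 47.6, 59.6 and 61.6 in KO TAC. KO TAC lay below all other libraries, and the Ctrl groups overlapped through Ctrl TAC 2. With TAC the log2 fold change was -0.20 in Ctrl (SE 0.09, adjusted p = 0.116) and -0.44 in KO (SE 0.09, adjusted p = 0.000737). Without Ctrl TAC 2 the Ctrl value passed (-0.27, adjusted p = 0.0416), and without KO TAC 4 the KO value was -0.49 (adjusted p = 0.000759).

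Pde4d (ENSMUSG00000021699, 13:108449948-109953461, plus strand) fell with TAC in both genotypes. It was at 13.7, 15.0, 14.2 and 14.2 CPM in Ctrl sham and 13.9, 15.2, 14.2 and 14.4 in KO sham. It was at 10.8, 12.5, 9.15 and 10.9 CPM in Ctrl TAC and 10.8, 9.48, 14.5 and 11.3 in KO TAC. The Ctrl groups did not overlap, and KO TAC 3 alone reached the sham range. The log2 fold change was -0.40 (SE 0.11, adjusted p = 0.0118) in Ctrl and -0.32 (SE 0.11, adjusted p = 0.0229) in KO. The KO value missed the threshold without KO sham 2, KO TAC 1, KO TAC 2 or KO TAC 4 (adjusted p = 0.0615, 0.0665, 0.0868 and 0.0516). The Ctrl value missed it with the 25 term (-0.38, adjusted p = 0.0921) and the KO value with the 33 term (-0.33, adjusted p = 0.1001).

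Pde4b (ENSMUSG00000028525, 4:102087543-102607259, plus strand) fell with TAC in Ctrl hearts and did not pass the test in KO hearts. It was at 24.6, 24.4, 20.9 and 27.1 CPM in Ctrl sham and 26.2, 26.2, 22.8 and 22.7 in KO sham. It was at 21.8, 15.8, 16.8 and 18.6 CPM in Ctrl TAC and 24.7, 23.9, 30.3 and 23.1 in KO TAC. Ctrl TAC was the group that stood low, with Ctrl TAC 1 inside the range of Ctrl sham, and KO TAC lay within or above the range of the KO sham libraries. With TAC the log2 fold change was -0.41 (SE 0.10, adjusted p = 0.00962) in Ctrl and 0.06 in KO (95% interval -0.16 to 0.28, adjusted p = 0.709). With the 25 term the Ctrl value was -0.22 and missed the threshold (adjusted p = 0.260), and without KO TAC 4 the KO value was 0.10 (adjusted p = 0.529).

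The next comparison asked what the loss of Cardinal did to these genes at rest and under load. In sham hearts, 0 of 9 members were called (edgeR), as were 0% of all genes. Cardinal itself was not called there, at -2.92 on the log2 scale (adjusted p = 0.9998, edgeR), though all KO sham libraries lay below all Ctrl sham libraries. The lack of calls in this comparison therefore does not show a lack of change. No member had an unadjusted p under 0.05, against 479 of the 18275 genes tested, and DESeq2 called 0 members and 3 of all genes. KO and Ctrl libraries overlapped for every member, while 1.78% of all genes had no overlap. The members' median absolute log2 fold change was 0.03, beside 0.07 over all genes. The widest interval belonged to Adra1b, at -0.18 (-0.70 to 0.33).

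In TAC hearts, Adcy6 was lower and Pde4b higher in KO than in Ctrl, 2 of 9 members against 2.68% of all genes (1.36% higher and 1.32% lower, edgeR). For Adcy6 the log2 fold change was -0.30 (95% interval -0.44 to -0.16, adjusted p = 0.0232), and for Pde4b it was 0.48 (0.26 to 0.70, adjusted p = 0.0229). KO TAC and Ctrl TAC libraries did not overlap for these genes or for Pde3a, 3 of 9 members against 10.5% of all genes. Without KO TAC 4, the library with Cardinal counts, Adcy6 was at -0.31 (adjusted p = 0.0388) and Pde4b at 0.53 (adjusted p = 0.0242). Without Ctrl TAC 2 neither passed, with -0.24 for Adcy6 (adjusted p = 0.0845) and 0.42 for Pde4b (adjusted p = 0.0889). Adcy6 also missed the threshold without KO TAC 1, KO TAC 2 or KO TAC 3 (adjusted p = 0.0552, 0.0667 and 0.0687), and Pde4b without Ctrl TAC 3 or KO TAC 3 (adjusted p = 0.0687 and 0.0842). With the 25 term the log2 fold change was -0.30 for Adcy6 (adjusted p = 0.112) and 0.36 for Pde4b (adjusted p = 0.141). Over all alternatives the log2 fold change stayed between -0.34 and -0.24 for Adcy6 and between 0.36 and 0.58 for Pde4b. In the same comparison 2 of 8 cardiomyocyte markers (Myh6 and Ryr2) were lower and 2 of 8 fibroblast markers (Col1a2 and Postn) higher in KO TAC, and their part in the result was not tested.

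The other members did not pass between the genotypes in TAC. Grk5 was at 0.28 (95% interval 0.09 to 0.48, adjusted p = 0.0996), Pde3a at -0.26 (-0.45 to -0.08, adjusted p = 0.108) and Adra1a at -0.38 (-0.70 to -0.06, adjusted p = 0.179) on the log2 scale. Adra1a passed without Ctrl TAC 1, the library in which it stood low (-0.52, adjusted p = 0.0337), and DESeq2 called Grk5 (adjusted p = 0.0490). Adra1b was at -0.36 (-0.88 to 0.16), Adcy5 at -0.17 (-0.36 to 0.02), Adrb1 at -0.05 (-0.38 to 0.27) and Pde4d at 0.09 (-0.13 to 0.31). Pde4b held 71.7% ± 1.93 of the Pde4b and Pde4d level per kilobase in KO TAC, and 65.6% ± 4.57 in Ctrl TAC (SD, n = 4), with the lowest KO TAC library at 69.9% and the highest Ctrl TAC library at 69.5%.

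**Figure D4:**
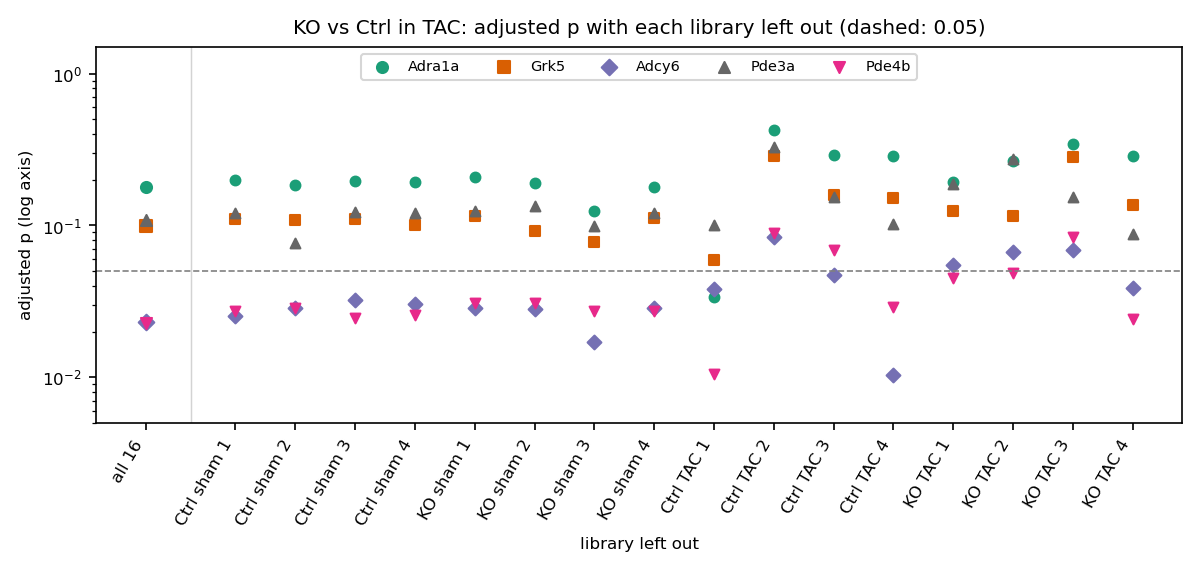
Adjusted p of the KO against Ctrl difference in TAC (log axis) for 5 members, with all 16 libraries and with each library left out in turn; the dashed line is 0.05. Adcy6 and Pde4b lie below the line with all libraries, and both lie above it without Ctrl TAC 2 or KO TAC 3.

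The difference between the effects of TAC in the genotypes was tested as an interaction. It was called for 0 of 9 members, against 0.0109% of all genes (edgeR). At an unadjusted p under 0.05 there were 3 of 9 members, against 11.1% of all genes (2024 of 18275). The interaction was -0.36 for Adcy6 (95% interval -0.55 to -0.16, adjusted p = 0.200), 0.47 for Pde4b (0.16 to 0.78, adjusted p = 0.260) and 0.32 for Grk5 (0.04 to 0.59, adjusted p = 0.376) on the log2 scale. DESeq2 called Adcy6 alone among the members (adjusted p = 0.0411). Without KO TAC 4 the interaction was -0.36 for Adcy6 (adjusted p = 0.200), 0.51 for Pde4b (adjusted p = 0.234) and 0.33 for Grk5 (adjusted p = 0.391). The fall of Pde4b in Ctrl and the value near 0 in KO were not shown to differ by edgeR.

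The rest of the pathway was followed in 96 further genes, of which 93 were tested. Adrb3, the beta-3 receptor, Adra2a and Adcy10 were filtered out and reached at most 0.134, 0.1195 and 0.0760 CPM. With TAC, 13 genes rose and 16 fell in Ctrl, and 21 rose and 22 fell in KO (edgeR), of 93. These are 13.98% and 17.2% in Ctrl, beside 10.4% and 9.60% of all genes, and 22.6% and 23.7% in KO, beside 17.8% and 16.5%. In both genotypes 28 were called, all in the same direction, which is 96.6% of the 29 called in Ctrl and 65.1% of the 43 called in KO. In the list, 4 genes (Pln, Ryr2, Tnni3 and Mybpc3) are also among the 8 cardiomyocyte markers. In sham hearts 0 were called between the genotypes by edgeR or DESeq2, with 1 at an unadjusted p under 0.05. In the interaction 0 were called by either tool, with 16 (17.2%) at that level, beside 11.1% of all genes.

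Among 5 further receptors tested, 1 fell with TAC in Ctrl and 2 fell in KO. Among 10 G protein genes 1 rose and 1 fell in Ctrl and 3 rose and 1 fell in KO. The shares over all genes were 10.4% higher and 9.60% lower in Ctrl, and 17.8% and 16.5% in KO. The changes that follow are log2 fold changes with TAC. Adra1d, the alpha-1D receptor, was at 0.30 in Ctrl and 0.05 in KO and passed in neither. Gnas, which encodes the stimulatory G protein, was at -0.01 in Ctrl and -0.08 in KO and passed in neither. Gnai2, an inhibitory G protein, passed in KO (0.19, adjusted p = 0.00302) and not in Ctrl (0.04). The interaction for Gnai2 was 0.15 and was not called (adjusted p = 0.381, edgeR). Gnao1, another inhibitory G protein, rose by 1.36 in Ctrl and 1.10 in KO. Rgs2, which speeds the shut-off of the G protein below the alpha-1 receptors, fell by 0.75 and 1.15. The Rgs2 call in Ctrl was kept in 23 of 24 alternatives (adjusted p up to 0.0645, edgeR or DESeq2). Grk2, another receptor kinase of the heart, was at -0.04 in Ctrl and -0.14 in KO, where it passed (adjusted p = 0.0446). That call was held in 6 of 16 fits that each left out 1 library, and not without KO TAC 4 (adjusted p = 0.0892). Over all 24 alternatives Grk2 was called in 10, with adjusted p up to 0.444 (edgeR or DESeq2).

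Of the other cyclases, Adcy7 rose by 1.26 in Ctrl and 1.76 in KO. Among the phosphodiesterases, Pde7a fell by 0.46 and 0.77, and Pde9a, which acts on cGMP, rose by 0.89 in KO. The Pde9a call was kept in 23 of 24 alternatives (adjusted p up to 0.0816, edgeR or DESeq2). Prkar1a, a regulatory subunit of protein kinase A, rose by 0.91 in KO. The protein kinase A substrates of the cardiomyocyte split into 2 that rose and 4 that fell among 10 in Ctrl, and 2 and 6 in KO. Over all genes, 10.4% rose and 9.60% fell in Ctrl, and 17.8% and 16.5% in KO. These 10 hold Pln, Ryr2, Tnni3 and Mybpc3, which are also cardiomyocyte markers, so the counts are not separate from the marker counts. Pln, the inhibitor of the calcium pump, fell by 0.47 in Ctrl and 0.58 in KO. A gene on the other strand overlaps 59.6% of the exon length of Pln. Hspb6, a small heat shock protein, rose by 0.76 in Ctrl. Among the alpha-1 effectors, Prkcd, a protein kinase C, rose by 0.51 in Ctrl. Of the genes that clear catecholamines, Maob fell by 0.83 and 1.06, and Slc22a3, a transporter, fell by 1.00 in KO. Genes given for 1 genotype were named by the size of their change there. That does not show that they were unchanged in the other genotype.

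**Figure D5:**
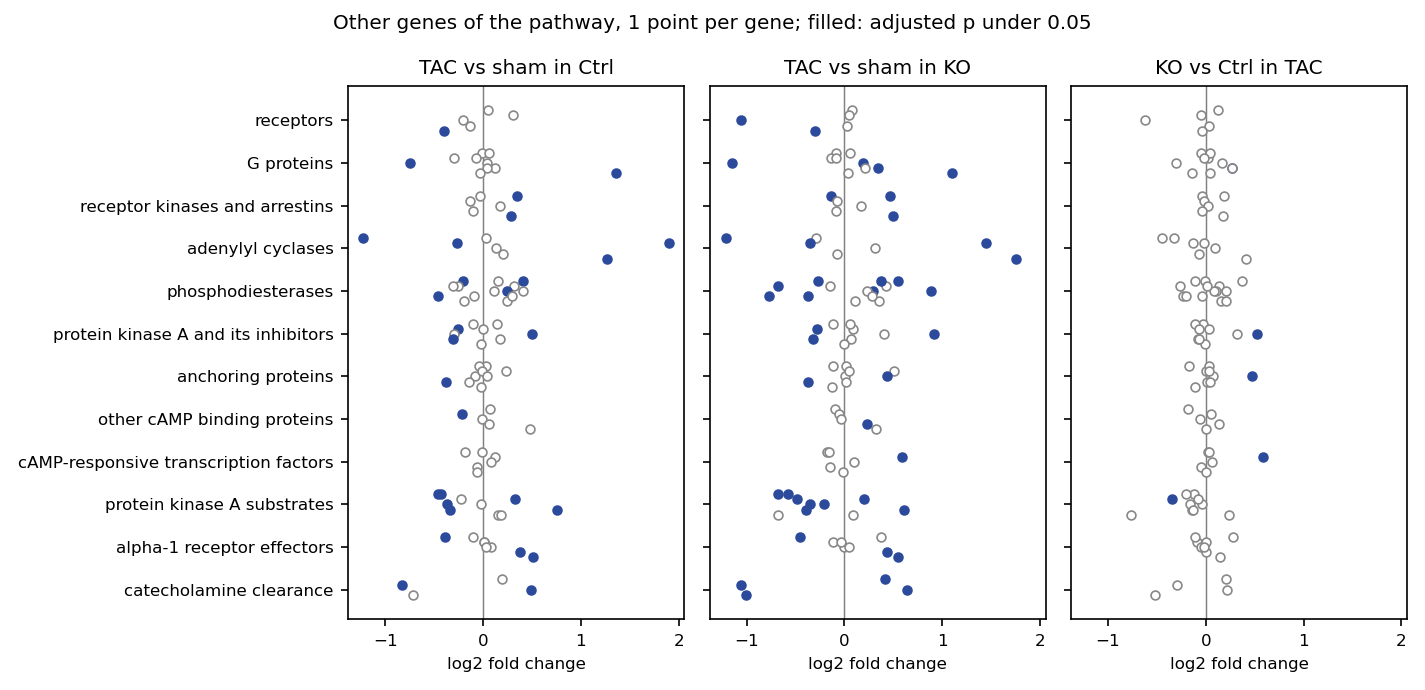
Log2 fold change (horizontal axes) of the 93 other pathway genes tested, 1 point per gene, by role in 3 comparisons, with filled points at adjusted p under 0.05. Filled points lie on both sides of 0 for TAC in each genotype, and 5 are filled between the genotypes in TAC.

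Between the genotypes in TAC, 4 of the 93 genes were higher in KO and 1 was lower (edgeR, against 1.36% and 1.32% of all genes). Crem, a transcription factor regulated by cAMP, was higher by 0.58 on the log2 scale (SE 0.13, adjusted p = 0.0242). Prkar1a was higher by 0.53 (SE 0.10, adjusted p = 0.0141), Akap12, an anchoring protein for protein kinase A, by 0.48 (SE 0.11, adjusted p = 0.0268), and Gnai3, an inhibitory G protein, by 0.27 (SE 0.07, adjusted p = 0.0485). Ryr2, the calcium release channel, was lower, at -0.34 on that scale (SE 0.08, adjusted p = 0.0374). None of the 5 passed without Ctrl TAC 2, where the adjusted p was 0.0921 for Crem, 0.0565 for Prkar1a, 0.0962 for Akap12, 0.156 for Gnai3 and 0.127 for Ryr2, and none passed with the 25 term (adjusted p from 0.0937 for Gnai3 to 0.217 for Akap12). Of 16 fits that each left out 1 library, Prkar1a was called in 14, Crem in 11, Akap12 in 11, Ryr2 in 9 and Gnai3 in 2. Without KO TAC 4, Gnai3 was not called (0.27, adjusted p = 0.0829) and the others were, with adjusted p from 0.00606 for Akap12 to 0.0439 for Ryr2.

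The genes nearest to each called member in their course over the 16 libraries were sought among 10150 genes, by the root mean square difference of centred log2 CPM. For Adra1a they were Fgf13, Dgat2 and Hdac11 (0.14 each), and for Adra1b Rgs7bp, Lgr6 and Kcnj5 (0.15 to 0.17). For Grk5 they were Slc6a6, Trim41 and Elmo1 (0.10 each), and for Adcy6 Dhodh, Aldh4a1 and Tbc1d16 (0.09 each). Clcn3, Ipo13 and Tbc1d24 lay nearest to Pde3a (0.08 to 0.09). Cds2, Map3k20 and Cacna1c lay nearest to Pde4d (0.12 each). For Pde4b the nearest were Tdrkh, Glcci1 and Plcd3 (0.13 to 0.15), against a spread of Pde4b itself of 0.25 (SD of log2 CPM). The libraries share their depth and their scaling across all these genes.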

How the data were processed

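Poly(A) RNA from the apex of the heart was sequenced in 16 mice as paired 150-base reads (TruSeq kit). The authors deposited raw counts per Ensembl gene. Per the submitters' processing notes, cutadapt 2.3, FastQC, HISAT2 2.1.0, edgeR 3.26.1 and GRCm38 were used. The counting program, the annotation, the strand setting and whether a count is a read or a pair are not given in the sources used here, so reads of overlapping genes on opposite strands cannot be told apart. The genes that overlap Adcy6 and Pde3a on the other strand held 4 and 883 counts over all libraries, for the whole gene. Reads within the overlaps themselves were not counted.

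Columns were matched to mice by the animal number in the titles, and replicates were numbered in the order of the samples. Names, positions and exon lengths came from GENCODE M21 (GRCm38), which matched 55227 of 55487 identifiers; promoters came from RefSeq (GRCm38.p6). Counts were filtered (filterByExpr), scaled by TMM and fitted with edgeR 4.0.16 (R 4.3.3; glmQLFit, robust, glmQLFTest) over 4 group means and 16 libraries, with Benjamini-Hochberg adjustment over 18275 genes and calls at adjusted p under 0.05. Intervals are 95% and come from the fit. The test was also run on counts simulated from the fitted model, with changes put into Ctrl TAC alone. That run cannot show how well the model suits these data, and its outcome is not given here. Alternatives were DESeq2 1.42.0, RLE size factors, other filters, a threshold of 0.01, terms for the animal-number series, fits to the 8 libraries compared, and leaving out libraries. Libraries held 53169437 to 79404714 counts, and with 4 mice per group the precision is given by the intervals of the fit.

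The members, the pathway and marker lists and the rules for naming genes were chosen with earlier results of these data known. Named pathway genes were the 4 largest rises and falls among called genes of average log2 CPM of at least 0, plus Adrb3, Adra1d, Grk2, Gnas and Gnai2, with 1 further gene not reported here; the 3 nearest genes were taken from genes of average log2 CPM of at least 2. The remaining marker lists (endothelial, smooth muscle, macrophage, lymphocyte, Schwann, adipocyte) are summarised with the observations.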

Additional observations from a re-analysis of the deposited data

Results flagged for a closer look

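In 5 of 40 groups of 4 libraries checked by Dixon's criterion, 1 library lay apart from the other three; chance alone marks about 1 group in 20. Adra1a stood at 11.5 CPM in Ctrl TAC 1, below the others at 17.7 to 18.9 CPM. Pde3a stood at 89.7 CPM in Ctrl sham 2, above the others at 72.5 to 74.2 CPM, and at 76.2 CPM in Ctrl TAC 2, above the others at 63.6 to 65.6 CPM. Cardinal (Gm12295) stood at 8.02 CPM in Ctrl TAC 1, against 2.69 to 3.37 CPM, and at 4.55 CPM in KO TAC 4, against 0.276 to 0.371 CPM.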

How the results depend on the processing

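No paired analysis was possible because the replicate numbers were given in the order of the samples and pair no animals. Among the members, Adcy6 in TAC against sham kept its call in both genotypes under all alternatives, as did Adra1a, Grk5 and Pde3a in KO. The members called for TAC in Ctrl numbered 2 at a threshold of 0.01 (all genes 2076) and 4 to 6 with each library left out, and those for TAC in KO 4 to 7. The counts of other pathway genes with each library left out were 22 to 32 in Ctrl and 41 to 45 in KO, and of all genes 2694 to 3719 and 5374 to 6495. Between the genotypes in sham, all genes called numbered 1 without Ctrl TAC 2 and KO TAC 4, 2 in the fit to 8 libraries, 3 with DESeq2 and 0 to 2 with each library left out.

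Between the genotypes in TAC, members called numbered 0 at a threshold of 0.01, 0 with a term for animal numbers beginning with 25, 0 without Ctrl TAC 2 and KO TAC 4, 0 in the fit to 8 libraries, and 0 to 3 with each library left out. Other pathway genes numbered 3 with no filter, 0 at 0.01, 0 with the 25 term, 2 without both libraries, 2 in the fit to 8 libraries, 9 with DESeq2 and 0 to 7 with each library left out. All genes numbered 285, 19, 12, 109, 154, 1183 and 63 to 733 in the same order. In the interaction, DESeq2 called 1 member and 132 of all genes; edgeR called 1 of all genes with no filter, 0 at 0.01, 0 with the 25 term, 0 with a term for numbers beginning with 33, 0 without both libraries, and 0 to 18 with each library left out. With the 25 term, Pde4b (-0.22, adjusted p = 0.260) and Pde4d (-0.38, adjusted p = 0.0921) lost the call for TAC in Ctrl and Adra1b gained it (adjusted p = 0.0175). With the 33 term Pde4d lost it in KO (-0.33, adjusted p = 0.1001) and Adra1b gained it in Ctrl (adjusted p = 0.0413). The cause of these changes was not tested.

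Signs turned in log2 fold changes that were not called. For TAC in Ctrl they were Adrb1 at 0.14 with the 25 term and -0.25 to 0.0206 with libraries left out, Gnas at 0.00126 with the 25 term and -0.0302 to 0.00872 with libraries left out, Grk2 at -0.0715 to 0.0135 with libraries left out. For TAC in KO they were Adcy5 at -0.13 to 0.0157 with libraries left out, Pde4b at -0.0343 to 0.10 with libraries left out, Adra1d at -0.0913 with the 33 term and -0.0733 to 0.34 with libraries left out. Between the genotypes in sham they were Adra1a at 0.0497 with the 33 term and -0.13 to 0.0571 with libraries left out, Adra1b at 0.0293 with the 33 term, Grk5 at 0.0394 with the 33 term and -0.10 to 0.0292 with libraries left out, Adcy6 at -0.00764 to 0.094 with libraries left out, Pde3a at 0.0209 with the 33 term and -0.0584 to 0.0512 with libraries left out, Pde4b at -0.0749 with the 33 term and -0.0498 to 0.0708 with libraries left out, Pde4d at -0.0115 to 0.0376 with libraries left out, Adra1d at -0.0817 to 0.34 with libraries left out, Gnai2 at -0.00934 with the 33 term. Between the genotypes in TAC they were Adrb1 at -0.19 to 0.0754 with libraries left out, Pde4d at -0.0423 to 0.17 with libraries left out, Adra1d at -0.17 to 0.0601 with libraries left out. In the interaction they were Adra1b at 0.18 with the 25 term and -0.36 to 0.035 with libraries left out, Pde4d at -0.056 to 0.16 with libraries left out, Adra1d at -0.39 to 0.0332 with libraries left out. No member was counted fewer than 509 times in a library.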

Other observations

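Markers of some other cell types were called with TAC. The shares over all genes were 10.4% higher and 9.60% lower in Ctrl, and 17.8% and 16.5% in KO. Between the genotypes in TAC, 1.32% of all genes were lower in KO. Of 8 macrophage markers, 4 rose with TAC in Ctrl and 7 in KO, and 1 was lower in KO TAC than in Ctrl TAC (edgeR). Of 4 Schwann cell markers, 1 fell in Ctrl and 3 fell in KO, with sums of 13.9 to 15.2 CPM in Ctrl sham and 7.27 to 9.43 CPM in KO TAC. Of 8 smooth muscle and pericyte markers, 3 rose in Ctrl and 4 in KO, and their sums overlapped between all 4 groups. Of 8 endothelial markers, 0 were called in Ctrl and 1 rose in KO, and their sums overlapped between all 4 groups. Of 3 lymphocyte markers tested, 0 were called in Ctrl and 2 rose in KO, and 0 of 5 adipocyte markers passed the filter. The part of these cells in the members' results was not tested.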
